A study of Mus musculus with 27 samples.

Results

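Naive pluripotency transcription factors are the nuclear proteins that hold mouse embryonic stem cells in a state like that of the early epiblast. RNA of 9 of them, taken as a list of named genes, is described here: Nanog, Klf2, Klf4, Klf5, Esrrb, Tfcp2l1, Prdm14, Tbx3 and Zfp42. They were found by symbol, through the Ensembl IDs of GENCODE M21, among the 53801 genes of the count table, and all 9 passed the filter on low counts that left 18363 genes for testing.

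RNA was sequenced from TX1072 cells, a mouse embryonic stem cell line whose parents were a BL/6J and a CAST-EiJ mouse, in 27 libraries of 6 groups. In every group the cells carried SPEN, a repressor that acts with Xist RNA, as a degron fusion that auxin removes, and grew in serum with LIF and with 2i, the inhibitors CHIR99021 (of GSK3) and PD0325901 (of MEK). The SPOC line expressed BglG-GFP-SPOC, the SPOC domain of SPEN joined to the RNA-binding protein BglG and GFP, and the GFP line expressed BglG-GFP. Each line was given auxin for 12 h followed by doxycycline with auxin for 24 h (Dox+Auxin), doxycycline alone at 1 ug/mL for 24 h (Dox), or neither (untreated), with 5 libraries per group in the SPOC line and 4 in the GFP line. Doxycycline turns on Xist, a non-coding RNA by which an X chromosome is silenced in cis. No group had auxin alone, so Dox+Auxin differs from untreated by both agents. Each construct was in 1 line, so the effect of SPOC and any other difference of the lines cannot be told apart. The labels do not say whether replicates were separate cultures, although the series' design text calls them biological. That text gives 4 replicates, while each SPOC group holds 5 libraries. The p-values measure the spread between these libraries.

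As background, LIF acts through STAT3 on Klf4, Tfcp2l1 and other factors, GSK3 inhibition lifts the repression of Esrrb by TCF7L1, and MEK inhibition removes the ERK signal that drives exit from the naive state. The factors bind each other's genes and partly stand in for each other. Their RNA falls when cells leave the naive state for formative and primed pluripotency, in which Otx2, Dnmt3b and Fgf5 rise.

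Libraries totalled 28936459 to 45489094 counts. The 9 factors had from 3201 counts (Prdm14) to 52008 counts (Tfcp2l1) in a library. Xist was high in every library given doxycycline, from 289.5 to 918 CPM (counts scaled by TMM library size). It was not alike in these groups: 747 to 918 CPM in GFP Dox libraries and 382 to 630 in GFP Dox+Auxin libraries. SPOC libraries held 308 to 458 CPM with Dox and 289.5 to 415 with Dox+Auxin. The edgeR test called neither GFP Dox+Auxin against Dox (log2 fold change -0.75, SE 0.78, adjusted p = 0.46) nor SPOC against GFP with Dox (-1.12, SE 0.73, adjusted p = 0.37). In both pairs, however, every library of the first group lay below every library of the second. Xist was low in untreated libraries except the library labelled SPOC untreated replicate 2, which held 178 CPM against 1.03 to 1.69 CPM in the other SPOC untreated libraries. Results that rest on the SPOC untreated group are therefore also given without this library where that changes a call. The tests of Xist above share 1 estimate of the spread with that group, and Xist was not tested without the library. Spen RNA was 1052 ± 114 CPM with Dox+Auxin, against 353 ± 15.0 CPM with Dox, in the SPOC line (SD, n = 5 each), whose construct contains part of Spen. In the GFP line it was 860.5 ± 223 CPM with Dox+Auxin and 197 ± 15.4 CPM with Dox (SD, n = 4 each). Auxin acts on the protein, which was not measured, so Spen RNA does not check the depletion.

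Per length of exon, the 9 factors kept 1 order in all 6 groups: Nanog, Zfp42, Klf2, Esrrb, Tfcp2l1, Klf5, Klf4, Prdm14 and Tbx3, from high to low. Nanog had 441 ± 15.8 CPM per kb in SPOC untreated libraries (SD, n = 5) and 407 ± 11.4 in GFP untreated libraries (SD, n = 4). Tbx3, at the low end, had 36.1 ± 2.76 and 36.2 ± 1.12 CPM per kb in the same groups. Some neighbours in the order did not differ beyond their spread: Zfp42 and Klf2 overlapped in both Dox+Auxin groups, Prdm14 and Tbx3 in both Dox groups, Klf4 and Prdm14 in the SPOC Dox+Auxin group, and Esrrb and Tfcp2l1 in both Dox groups and the GFP untreated group. All other neighbours were apart in every library of a group. The RPKM deposited by the authors keep this order, but are 34.6 times the CPM per kb of GENCODE M21 exons for each of the 9 genes, so they are not printed as levels.

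**Figure D1:**
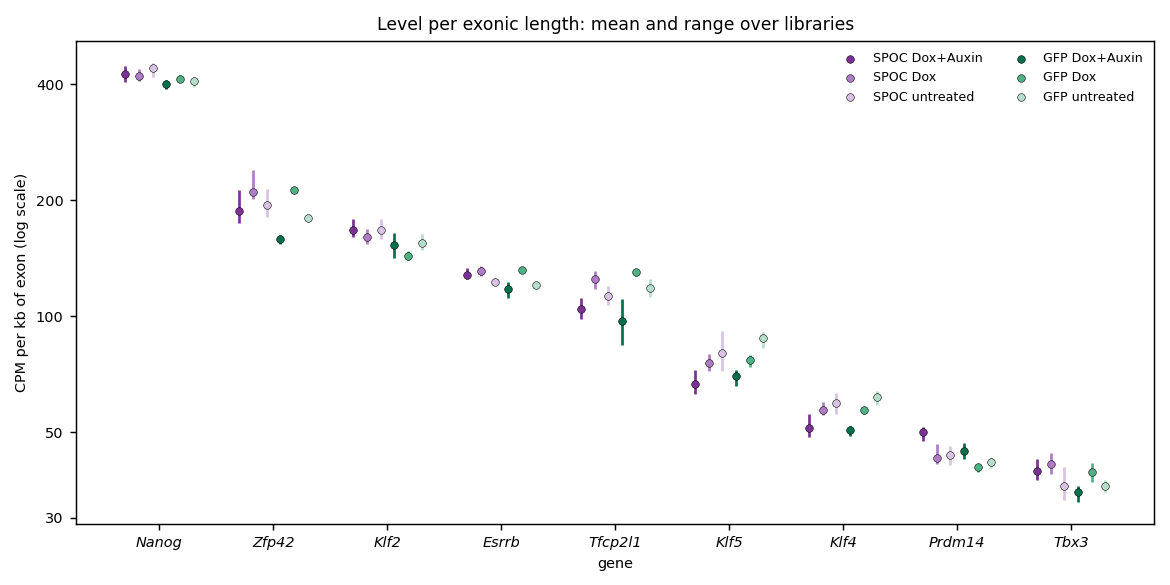
Level of each naive factor per length of exon (CPM per kb, log axis), with the mean (point) and the lowest to highest library (line) of each of the 6 groups, 5 SPOC or 4 GFP libraries each. The genes keep 1 order from Nanog to Tbx3 in all groups, and the changes between groups are small beside the differences between genes.

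The group means of each of the 9 factors spanned less than 0.5 on the log2 scale. The span between the highest and the lowest of the 6 group means was smallest for Nanog, 0.14 on the log2 scale, and reached 0.43 for Tfcp2l1, 0.42 for Zfp42 and 0.40 for Klf5. The median span was 0.39 over all 18363 genes tested and 0.18 over the 2393 genes whose mean CPM was at or above that of Prdm14, the factor with the lowest mean CPM. Nanog and Esrrb (0.16) lay below this second median, and the other factors lay above it. Genes with high counts are called at smaller changes, so counts of called factors are set beside both sets of genes. A call is an adjusted p under 0.05 in edgeR's quasi-likelihood F test, adjusted by Benjamini-Hochberg over all genes tested.

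**Figure D2:**
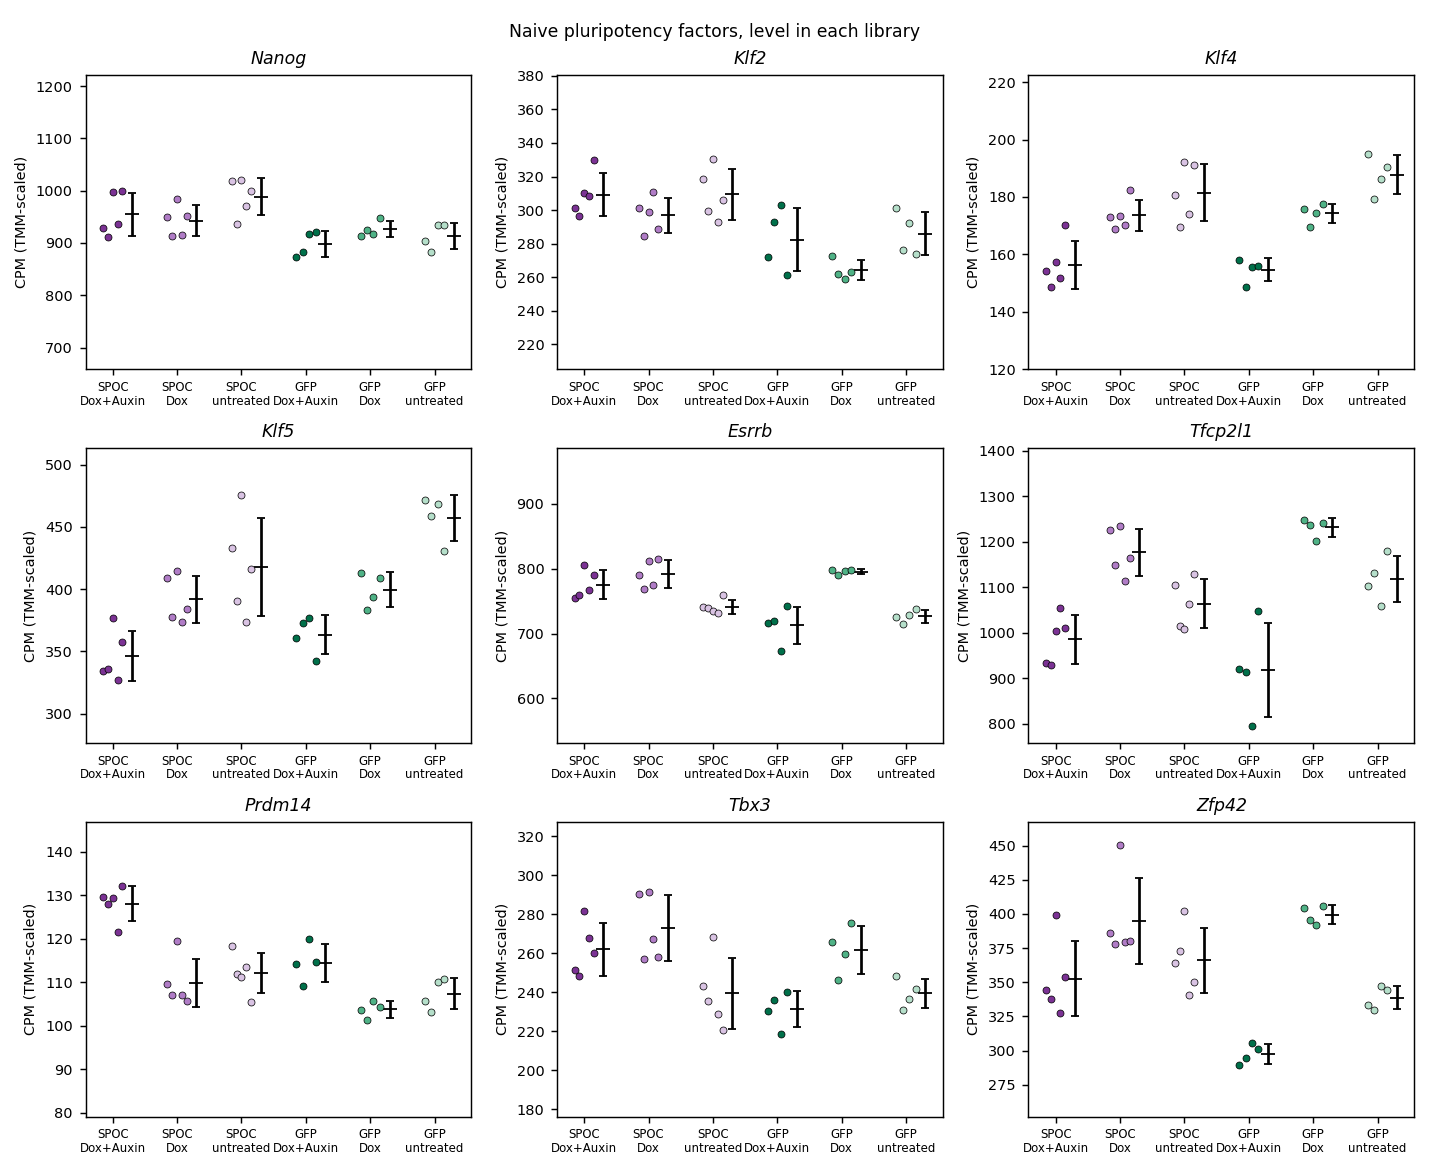
CPM of each naive factor in every library (points), with the group mean and SD (bars), for the SPOC line (5 libraries per group) and the GFP line (4 per group). Each axis covers the same share of the gene's own mean and does not start at 0. Zfp42 and Tfcp2l1 are lowest with Dox+Auxin in the GFP line, and Prdm14 is highest with Dox+Auxin in the SPOC line.

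Dox+Auxin against Dox asks what changes when auxin, given to remove SPEN, is added while Xist is on. All cells carried the degron fusion, so effects of auxin itself cannot be told apart from those of SPEN loss. In the GFP line it called 7 factors, the most of the 11 comparisons. For SPOC cells it called 5, as many as when Dox+Auxin libraries were set beside untreated ones. SPOC against GFP with Dox+Auxin called 6. In the SPOC line Tfcp2l1, Klf5, Zfp42 and Klf4 fell and Prdm14 rose, so that 5 of 9 factors were called, where 32.0% of all genes tested and 39.8% of the genes at the factors' level were. In the GFP line Zfp42, Tfcp2l1, Tbx3, Klf4, Esrrb and Klf5 fell and Prdm14 rose, so that 7 of 9 were called, where 47.6% of all genes and 60.8% of genes at that level were. Falls made up 6 of the 9, beside 22.9% of all genes and 43.5% of genes at that level. The background was itself high, and 9 genes are too few to read more than a description from these shares. The median log2 fold change of the 9 was -0.06 in the SPOC line, against -0.01 over all genes, and -0.16 in the GFP line, against 0.00 over all genes. These are bulk libraries, in which fewer cells of a type and less RNA per cell cannot be told apart.

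Dox against untreated asks what doxycycline and Xist do with SPEN present. In the SPOC line Esrrb and Tbx3 rose and no factor fell, 2 of 9 called beside 13.5% of all genes and 19.8% of genes at the factors' level. In the GFP line Esrrb and Zfp42 rose and Klf5 fell, 3 of 9 called beside 20.9% and 34.2%. The GFP count was 7 when only the groups compared entered the fit, which added falls of Klf2 and Klf4 and rises of Tfcp2l1 and Tbx3 and in which 28.1% of all genes were called. It was 5 without untreated replicate 2. A replicate block (a term for each replicate number within a line added to the fit) called 7 factors in each line. All genes called were then 22.6% in the SPOC line and 30.5% in the GFP line. In the SPOC line the block added falls of Nanog, Klf4 and Klf5 and rises of Tfcp2l1 and Zfp42. No factor was called for a difference between the lines in this response, where 0.240% of all genes and 0.334% of genes at the factors' level were called. At an unadjusted p under 0.05 the count was also 0, and DESeq2 called none of the 9. The replicate block called 1, Zfp42 (-0.13, adjusted p = 0.043), beside 1.6% of all genes.

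Dox+Auxin against untreated, which combines both agents, shares libraries with the comparisons above. In the SPOC line Klf5 and Klf4 fell and Prdm14, Tbx3 and Esrrb rose, 5 of 9 called beside 33.3% of all genes and 43.5% of genes at the factors' level. The count was 3 without SPOC untreated replicate 4 or SPOC Dox+Auxin replicate 3. In the GFP line Klf5, Tfcp2l1, Klf4 and Zfp42 fell and none rose, 4 of 9 beside 38.2% and 43.5%.

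SPOC against GFP asks how the lines differ within a treatment. With Dox+Auxin, Zfp42, Tbx3, Prdm14, Klf2, Esrrb and Nanog were higher in the SPOC line and none was lower, 6 of 9 called, where 24.6% of all genes and 31.5% of genes at the factors' level were called. Calls on the higher side took 11.2% of all genes and 22.6% of genes at that level. The count was 4 with only the groups compared, which lost Nanog and Klf2 and called 18.1% of all genes. It was 5 without a filter on low counts, beside 10.3% of all genes, and 4 to 6 when 1 library was left out. With Dox only Klf2 was called, 1 of 9 beside 10.7% of all genes and 12.8% of genes at that level, and in untreated cells only Nanog, 1 of 9 beside 11.6% and 20.0%; both were higher in the SPOC line. The response to Dox+Auxin relative to Dox differed between the lines for Zfp42 and Esrrb, 2 of 9 beside 8.14% of all genes and 14.0% of genes at that level. The count was 1 with only the groups compared, and 0 to 3 when 1 library was left out, 0 without GFP Dox+Auxin replicate 1 and 1 in 8 other such fits, which lost Esrrb. The 11 comparisons share libraries, so their counts are not independent of each other.

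**Figure D3:**
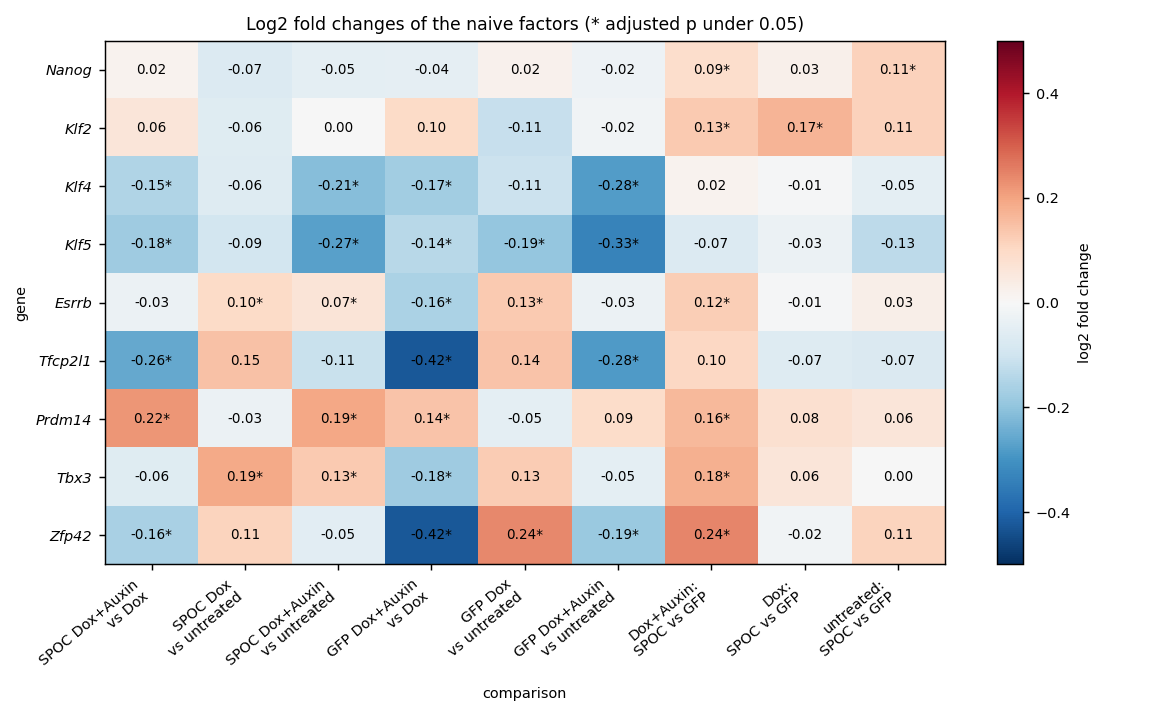
Log2 fold changes of the 9 factors (rows of cells) in 9 comparisons (columns of cells), with the first-named group over the second; red is higher, blue is lower, and a star marks an adjusted p under 0.05. Falls cluster in the comparisons of Dox+Auxin within a line, and all 6 starred values of SPOC against GFP with Dox+Auxin are positive.

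Tfcp2l1 (ENSMUSG00000026380, chromosome 1, 118627945 to 118685168, plus strand, GRCm38) encodes a CP2-family factor that acts downstream of LIF and STAT3. In SPOC libraries it was at 933, 929, 1003, 1054 and 1010.0 CPM with Dox+Auxin, 1225, 1148, 1235, 1113 and 1163 with Dox and 1104, 1015, 1008, 1063 and 1129 untreated. In GFP libraries it was at 920.2, 912, 794 and 1047 CPM with Dox+Auxin, 1247, 1237, 1201 and 1242 with Dox and 1102, 1130.4, 1058 and 1179.6 untreated. Every Dox+Auxin library of a line lay below every Dox library of that line, and the GFP Dox+Auxin libraries spread most, with replicate 3 lowest and replicate 4 highest. Against Dox, Tfcp2l1 fell with Dox+Auxin in the SPOC line (log2 fold change -0.26 ± 0.05, adjusted p = 0.00031; errors of fold changes are SE) and in the GFP line (-0.42 ± 0.06, adjusted p = 7.2e-07). The difference between these responses, 0.17 with a 95% interval of 0.01 to 0.32, did not pass the test (adjusted p = 0.18). Against untreated it fell in the GFP line (-0.28 ± 0.06, adjusted p = 0.00026), while the SPOC value was -0.11 ± 0.05, adjusted p = 0.099. With Dox against untreated the values were 0.15 in the SPOC line (adjusted p = 0.056) and 0.14 in the GFP line (adjusted p = 0.079), neither past the threshold. With only the groups compared both rises passed (adjusted p = 0.011 in the SPOC line and 0.0018 in the GFP line), and DESeq2 called the SPOC rise (adjusted p = 0.032). The replicate block also called both (adjusted p = 0.029 in the SPOC line and 0.043 in the GFP line).

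Klf4 (ENSMUSG00000003032, chromosome 4, 55527143 to 55532466, minus strand) is the Krüppel-like factor that LIF induces through STAT3 and that serves in reprogramming to pluripotency. Its SPOC libraries held 154, 148, 157, 152 and 170.2 CPM with Dox+Auxin, 173, 169, 173, 170.1 and 182 with Dox and 181, 169.6, 192, 174 and 191 untreated. Its GFP libraries held 158, 149, 156 and 156 CPM with Dox+Auxin, 176, 169.6, 174 and 178 with Dox and 195, 179, 186 and 190.4 untreated. The Dox+Auxin libraries were the low ones in both lines, without overlap in the GFP line and with 1 SPOC library, replicate 5, within the range of the Dox group. Klf4 fell against Dox in the SPOC line (-0.15 ± 0.04, adjusted p = 0.0016) and in the GFP line (-0.17 ± 0.04, adjusted p = 0.00066), by sizes whose difference was 0.02 (95% interval -0.09 to 0.13). It also fell against untreated in the SPOC line (-0.21 ± 0.04, adjusted p = 2.3e-05) and in the GFP line (-0.28 ± 0.04, adjusted p = 1.6e-06). With Dox against untreated Klf4 was -0.06 ± 0.04 (adjusted p = 0.26) in the SPOC line. In the GFP line it was -0.11 ± 0.04 (adjusted p = 0.052), and every Dox library lay below every untreated one. This GFP fall was called by DESeq2 (adjusted p = 0.048), with only the groups compared (0.017), with the replicate block (0.0011) and without SPOC untreated replicate 2 (0.038). The block also called the SPOC fall (adjusted p = 0.037). No comparison of the lines called Klf4.

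Klf5 (ENSMUSG00000005148, chromosome 14, 99298691 to 99315036, plus strand) is a Krüppel-like factor of self-renewal that also works in the trophectoderm. Levels in SPOC libraries were 334, 336, 377, 327 and 357 CPM with Dox+Auxin, 409, 378, 415, 374 and 384 with Dox and 433, 391, 475, 374 and 416 untreated. Levels in GFP libraries were 361, 373, 377 and 342 CPM with Dox+Auxin, 413, 383, 393 and 409 with Dox and 472, 459, 468 and 431 untreated. The 3 groups of the GFP line did not overlap, with untreated highest and Dox+Auxin lowest, whereas each SPOC group overlapped the next. Klf5 fell against Dox in the SPOC line (-0.18 ± 0.05, adjusted p = 0.0061) and in the GFP line (-0.14 ± 0.06, adjusted p = 0.04). The GFP call was lost without any 1 of Dox replicates 1, 3 and 4 or Dox+Auxin replicates 1 and 4, with an adjusted p of up to 0.14, and also without a filter on low counts (adjusted p = 0.059). Klf5 had the largest fall of the 9 against untreated, in the SPOC line (-0.27 ± 0.05, adjusted p = 9.4e-05) and in the GFP line (-0.33 ± 0.05, adjusted p = 2e-05). With Dox against untreated it was -0.09 ± 0.05, adjusted p = 0.24 in the SPOC line and fell in the GFP line (-0.19 ± 0.05, adjusted p = 0.011). The replicate block called the SPOC fall as well (adjusted p = 0.034).

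Tbx3 (ENSMUSG00000018604, chromosome 5, 119670669 to 119684724, plus strand) is a T-box factor that sustains self-renewal and, in other settings, takes part in extraembryonic endoderm formation. SPOC libraries had 252, 248, 282, 268 and 260.2 CPM with Dox+Auxin, 291, 257, 292, 267 and 258 with Dox and 243, 236, 269, 229 and 221 untreated. GFP libraries had 231, 236, 219 and 240.2 CPM with Dox+Auxin, 266, 246, 259.6 and 276 with Dox and 248, 231, 237 and 242 untreated. Dox libraries were high in both lines, and the GFP Dox+Auxin libraries lay below all GFP Dox libraries, while in the SPOC line these groups overlapped. Tbx3 fell against Dox in the GFP line (-0.18 ± 0.05, adjusted p = 0.0049), while its SPOC value was -0.06 ± 0.05, adjusted p = 0.35; the difference between the lines, 0.12 ± 0.07, adjusted p = 0.32, was not called. It rose with Dox against untreated in the SPOC line (0.19 ± 0.05, adjusted p = 0.0049), and its GFP value was 0.13 ± 0.05, adjusted p = 0.076. This GFP rise was called with only the groups compared (adjusted p = 0.007) and with the replicate block (0.004). Against untreated, Tbx3 rose with Dox+Auxin in the SPOC line (0.13 ± 0.05, adjusted p = 0.028), a call lost in 5 of 10 fits that left out 1 library, among them the fit without untreated replicate 2 (adjusted p = 0.052). The others were those without untreated replicate 4 or 5 or Dox+Auxin replicate 3 or 4, with an adjusted p of up to 0.093, and a fit of only the groups compared gave 0.058. With Dox+Auxin, every SPOC library lay above every GFP library (0.18 ± 0.05, adjusted p = 0.0072).

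Esrrb (ENSMUSG00000021255, chromosome 12, 86361117 to 86521628, plus strand) encodes an orphan nuclear receptor, the main target through which GSK3 inhibition supports self-renewal. SPOC levels were 755, 759, 806, 767 and 790.4 CPM with Dox+Auxin, 791, 768, 813, 774 and 815 with Dox and 741, 739, 734, 732 and 759 untreated. GFP levels were 716, 719.6, 674 and 742 CPM with Dox+Auxin, 797, 789.7, 797 and 798 with Dox and 725, 714, 729 and 738 untreated. With Dox every library was above every untreated library of its line, and with Dox+Auxin the GFP libraries were all below their Dox libraries while the SPOC groups overlapped. Esrrb rose with Dox against untreated in the SPOC line (0.10 ± 0.02, adjusted p = 0.0079) and in the GFP line (0.13 ± 0.03, adjusted p = 0.00073). Against Dox it fell with Dox+Auxin in the GFP line (-0.16 ± 0.03, adjusted p = 2e-05) and was -0.03 ± 0.02, adjusted p = 0.38 in the SPOC line. The difference between the lines was called (0.13 ± 0.04, adjusted p = 0.03), but the call was lost in 9 of 18 fits that left out 1 library, with an adjusted p of up to 0.077, and in a fit of only the groups compared (adjusted p = 0.055). The 9 libraries were SPOC Dox replicates 2 and 4, SPOC Dox+Auxin replicates 3 and 5, GFP Dox replicates 1, 3 and 4, and GFP Dox+Auxin replicates 1 and 3. With Dox+Auxin the SPOC libraries all lay above the GFP libraries (0.12 ± 0.03, adjusted p = 0.001). The small rise against untreated in the SPOC line (0.07 ± 0.02, adjusted p = 0.041) was lost without any 1 of untreated replicates 3 and 4 or Dox+Auxin replicates 3 and 5, with an adjusted p of up to 0.13, and without a filter on low counts (adjusted p = 0.095).

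Zfp42 (ENSMUSG00000051176, chromosome 8, 43295063 to 43306980, minus strand), also known as Rex1, is a zinc finger gene used as a reporter of the naive state. Its level was 344, 338, 399, 328 and 354 CPM in SPOC libraries with Dox+Auxin, 386, 378, 450.3, 379 and 380.4 with Dox and 364, 373, 402, 341 and 350.5 untreated. It was 289, 294, 306 and 301 CPM in GFP libraries with Dox+Auxin, 404, 396, 392 and 406 with Dox and 333, 329.9, 347 and 344 untreated. The 3 GFP groups did not overlap, with Dox highest and Dox+Auxin lowest, and all GFP Dox+Auxin libraries lay below all SPOC Dox+Auxin libraries. SPOC replicate 3 was the highest library in each of its 3 groups. Zfp42 fell against Dox in the SPOC line (-0.16 ± 0.05, adjusted p = 0.0092) and in the GFP line (-0.42 ± 0.05, adjusted p = 1.7e-07). The fall was smaller in the SPOC line by 0.26 ± 0.07, adjusted p = 0.022; this call was lost without GFP Dox+Auxin replicate 1 (adjusted p = 0.054) and kept in the other 17 of 18 fits. The SPOC fall was lost without SPOC Dox replicate 3 (adjusted p = 0.051). With Dox against untreated Zfp42 rose in the GFP line (0.24 ± 0.05, adjusted p = 0.0014) and was 0.11 ± 0.05, adjusted p = 0.14 in the SPOC line. The replicate block called this SPOC rise (adjusted p = 0.00074). Against untreated it fell with Dox+Auxin in the GFP line (-0.19 ± 0.05, adjusted p = 0.0066) and was -0.05 ± 0.05, adjusted p = 0.42 in the SPOC line. Within a treatment, Zfp42 differed most between SPOC and GFP with Dox+Auxin (0.24 ± 0.05, adjusted p = 0.00081).

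**Figure D4:**
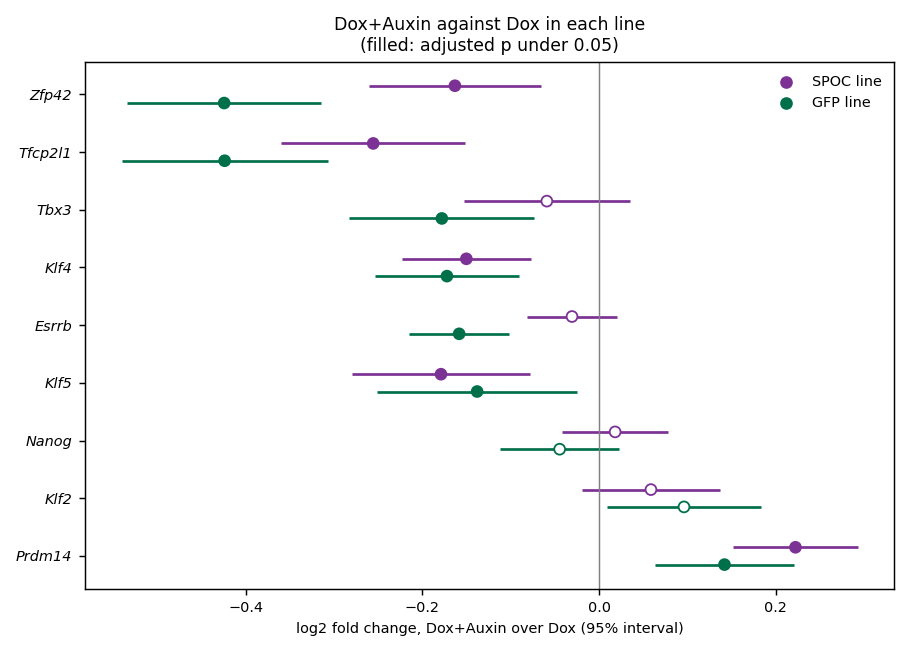
Log2 fold change of each factor with Dox+Auxin over Dox (x axis) with its 95% interval, in the SPOC line (upper point of each pair) and the GFP line (lower point); filled points passed an adjusted p under 0.05. Zfp42 and Tfcp2l1 lie farthest left in the GFP line, both at -0.42, and Prdm14 lies to the right of 0 in both lines.

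The 250 bases before the RefSeq start sites (GRCm38.p6) are shown for Tfcp2l1, Esrrb (start site 1) and Zfp42, which fell together with Dox+Auxin in the GFP line and of which Zfp42 and Esrrb differed between lines. They are printed 5′ to 3′ on the strand of the gene, with matches to the motifs searched in capitals.
Tfcp2l1, chr1:118627695-118627944, plus strand: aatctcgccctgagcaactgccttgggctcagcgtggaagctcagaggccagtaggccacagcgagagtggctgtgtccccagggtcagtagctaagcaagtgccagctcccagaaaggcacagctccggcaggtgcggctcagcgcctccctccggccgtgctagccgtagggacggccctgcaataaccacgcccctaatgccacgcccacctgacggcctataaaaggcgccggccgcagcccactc
Esrrb, chr12:86360867-86361116, plus strand: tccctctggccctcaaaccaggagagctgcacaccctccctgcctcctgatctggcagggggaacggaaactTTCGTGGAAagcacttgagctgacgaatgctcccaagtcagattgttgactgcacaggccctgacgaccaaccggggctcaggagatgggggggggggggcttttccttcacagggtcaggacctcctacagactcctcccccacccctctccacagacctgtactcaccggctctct
Zfp42, chr8:43307010-43307259, minus strand: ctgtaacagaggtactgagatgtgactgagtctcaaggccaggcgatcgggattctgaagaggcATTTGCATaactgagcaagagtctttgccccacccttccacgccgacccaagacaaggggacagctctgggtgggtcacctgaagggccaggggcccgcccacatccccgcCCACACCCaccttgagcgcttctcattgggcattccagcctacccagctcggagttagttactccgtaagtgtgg

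The motifs were TTCNNNGAA, bound by STAT factors, CTTTGAT (TCF/LEF), AAGGTCA (an ESRRB site), ATTTGCAT (the octamer of POU factors) and CCACACCC (Krüppel-like factors), each searched on both strands of the 8 promoter entries of 6 factors, with Klf5, Prdm14 and Tbx3 not among them. The same windows of 32851 mouse promoters held a match in 7.02% for the STAT motif, 3.21% for TCF/LEF, 4.08% for the ESRRB site, 1.6% for the octamer and 3.2% for the Krüppel-like motif. Zfp42 held an octamer starting at -186 and a Krüppel-like match starting at -75, relative to the start site, and Esrrb held a STAT match, TTCGTGGAA, starting at -178. The other windows, of Tfcp2l1, Klf4, Nanog, Klf2 and the second Esrrb start site, held none of these letters. The 3 genes shown, picked with these results known, thus shared no motif of this set in these windows, and a match is a string of letters, not a measured site.

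Nanog (ENSMUSG00000012396, chromosome 6, 122707489 to 122714633, plus strand), the homeodomain factor of the network, was the steadiest of the 9. SPOC libraries were at 929.5, 911, 998, 936 and 999.8 CPM with Dox+Auxin, 949, 914, 984, 915 and 952 with Dox and 1018, 936, 1019.5, 970.0 and 999 untreated. GFP libraries were at 872, 882, 917 and 921 CPM with Dox+Auxin, 913, 925, 918 and 949 with Dox and 903, 882, 934 and 935 untreated. Groups overlapped within each line, and no treatment comparison called Nanog in the fit of all groups. With the replicate block, Nanog was lower than untreated in the SPOC line with Dox (-0.07, adjusted p = 0.0086) and with Dox+Auxin (-0.05, adjusted p = 0.032). The difference with Dox+Auxin against Dox was 0.02 in the SPOC line (95% interval -0.04 to 0.08) and -0.04 in the GFP line (-0.11 to 0.02). Nanog was higher in the SPOC line untreated (0.11 ± 0.03, adjusted p = 0.018), with no overlap, and with Dox+Auxin (0.09 ± 0.03, adjusted p = 0.037), with overlap. The first call was lost without GFP untreated replicate 1 or 2 (adjusted p of up to 0.083) and without a filter on low counts (adjusted p = 0.075). The second was lost without SPOC Dox+Auxin replicate 3 or 5 or GFP Dox+Auxin replicate 1 or 2 (adjusted p of up to 0.13), without a filter (adjusted p = 0.061) and with only the groups compared (adjusted p = 0.077).

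Klf2 (ENSMUSG00000055148, chromosome 8, 72319033 to 72321656, plus strand) is the Krüppel-like factor whose protein is stabilised when MEK is inhibited. It had 301, 297, 310.3, 308 and 329.6 CPM in SPOC Dox+Auxin libraries, 301, 285, 299, 311 and 289 in SPOC Dox libraries and 319, 299, 330.5, 293 and 306 in SPOC untreated libraries. It had 272, 293, 303 and 262 CPM in GFP Dox+Auxin libraries, 273, 262, 259 and 263 in GFP Dox libraries and 301, 276, 292 and 274 in GFP untreated libraries. Klf2 was lowest in the GFP Dox group, which lay below all GFP untreated and all SPOC Dox libraries. No comparison of treatments called it in the fit of all groups: Dox+Auxin against Dox gave 0.06 ± 0.04, adjusted p = 0.26 in the SPOC line and 0.10 ± 0.04, adjusted p = 0.065 in the GFP line. Dox against untreated gave -0.06 ± 0.04, adjusted p = 0.35 in the SPOC line and -0.11 ± 0.04, adjusted p = 0.056 in the GFP line. This GFP fall was called without a filter (adjusted p = 0.036), with only the groups compared (0.017) and with the replicate block (0.034). Leaving out 1 library called it in 3 of 8 fits, and the GFP rise with Dox+Auxin against Dox also in 3 of 8. The replicate block called that rise too, at an adjusted p that rounds to 0.05. Klf2 was higher in the SPOC line with Dox (0.17 ± 0.04, adjusted p = 0.0068) and with Dox+Auxin (0.13 ± 0.04, adjusted p = 0.018). The Dox+Auxin call was lost without SPOC Dox+Auxin replicate 5 or GFP Dox+Auxin replicate 1 or 4 (adjusted p of up to 0.09) and with only the groups compared (adjusted p = 0.054). Untreated, the difference was 0.11 ± 0.04, adjusted p = 0.065, and was called with the replicate block at an adjusted p that rounds to 0.05.

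Prdm14 (ENSMUSG00000042414, chromosome 1, 13113457 to 13127163, minus strand) encodes a PR domain protein that represses FGF receptor signalling and DNA methyltransferase genes in naive cells. SPOC counts came to 129.6, 128, 129, 122 and 132 CPM with Dox+Auxin, 109.7, 107, 119, 107 and 106 with Dox and 118, 112, 111, 113 and 105 untreated. GFP counts came to 114, 109, 119.9 and 115 CPM with Dox+Auxin, 104, 101, 106 and 104 with Dox and 106, 103, 110.0 and 111 untreated. It was the 1 factor that was higher with Dox+Auxin than with Dox in every library of both lines, and the SPOC Dox+Auxin libraries also lay above all SPOC untreated and all GFP libraries. Prdm14 rose against Dox in the SPOC line (0.22 ± 0.03, adjusted p = 8.5e-06) and in the GFP line (0.14 ± 0.04, adjusted p = 0.0029). The difference between these rises was 0.08 (95% interval -0.03 to 0.19). Against untreated it rose in the SPOC line (0.19 ± 0.03, adjusted p = 5.7e-05) and was 0.09 ± 0.04, adjusted p = 0.056 in the GFP line. The replicate block called this GFP rise (adjusted p = 0.019). With Dox+Auxin it was higher in the SPOC line (0.16 ± 0.04, adjusted p = 0.0015).

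Other genes of the network were called in the same comparison at shares to be read against the background given above, 32.0% of all genes in the SPOC line and 47.6% in the GFP line, or 39.8% and 60.8% of genes at the factors' level. Of 12 genes tied to the naive state other than the 9, 2 were called higher and 5 lower with Dox+Auxin than with Dox in the SPOC line (median log2 fold change -0.03) and 0 higher and 6 lower in the GFP line (-0.20). The GFP share, 6 of 12, is near the background. Tet2, a methylcytosine dioxygenase, fell in the SPOC line (-0.36 ± 0.08, adjusted p = 0.002) and in the GFP line (-0.77 ± 0.09, adjusted p = 4.3e-07). Jam2, a junctional adhesion molecule, fell in the GFP line (-0.78 ± 0.05, adjusted p = 7.2e-13), with a difference between the lines of 0.52 ± 0.07 (adjusted p = 2.2e-05). Its SPOC means were 518 CPM with Dox and 433 CPM with Dox+Auxin, and a test for that line is not given here. Of 13 genes of general pluripotency, 2 rose and 6 fell in the SPOC line (8 of 13) and 3 rose and 9 fell in the GFP line (12 of 13). Foxd3, a forkhead repressor, fell by more than any of the 9 factors, in the SPOC line (-0.75 ± 0.08, adjusted p = 2.4e-08) and in the GFP line (-1.71 ± 0.09, adjusted p = 3.8e-14), and these falls differed (0.96 ± 0.12, adjusted p = 1.2e-05). Lin28a, an RNA-binding protein, rose in the SPOC line (0.46 ± 0.09, adjusted p = 0.00039) and in the GFP line (0.72 ± 0.10, adjusted p = 3.8e-06).

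Genes upstream of the factors were called in both directions. Of 12 genes of LIF and STAT3 signalling, 2 rose and 3 fell in the SPOC line (Dox+Auxin against Dox), and 3 rose and 3 fell in the GFP line. These are 5 and 6 of 12, near the 32.0% and 47.6% of all genes. Il6st, the shared signalling receptor of LIF, rose in the SPOC line (0.26 ± 0.05, adjusted p = 0.00036) and in the GFP line (0.32 ± 0.06, adjusted p = 6.6e-05), and Lifr, its partner, fell in the GFP line (-0.23 ± 0.09, adjusted p = 0.038). Of 11 genes tied to exit from the naive state, 3 rose and 5 fell in the SPOC line and 3 rose and 7 fell in the GFP line. These are 8 of 11, beside 32.0% of all genes and 39.8% of genes at the factors' level, and 10 of 11, beside 47.6% and 60.8%. Etv5, an ETS factor induced by ERK signalling, fell in the SPOC line (-0.33 ± 0.03, adjusted p = 2.1e-09) and in the GFP line (-0.48 ± 0.04, adjusted p = 2.4e-12). Tfe3, an X-linked factor that is kept out of the nucleus during exit, rose in the SPOC line (0.41 ± 0.03, adjusted p = 1.7e-10) and in the GFP line (0.70 ± 0.04, adjusted p = 5.2e-15). Flcn, which acts on Tfe3, rose as well (0.26 ± 0.03 in the SPOC line, adjusted p = 1.5e-07, and 0.39 ± 0.03 in the GFP line, adjusted p = 1.3e-10).

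Formative and primed genes were called in both directions. Of 13, 3 rose and 4 fell in the SPOC line (Dox+Auxin against Dox), and 4 rose and 3 fell in the GFP line. That is 7 of 13 in each line, beside 32.0% of all genes in the SPOC line and 47.6% in the GFP line, near the background in the GFP line. Dnmt3b, a DNA methyltransferase that PRDM14 represses, fell in the SPOC line (-0.77 ± 0.05, adjusted p = 1.2e-12) and in the GFP line (-1.21 ± 0.05, adjusted p = 2.6e-16). Otx2, a homeobox factor of the formative state, rose in the GFP line (1.18 ± 0.21, adjusted p = 8.9e-05), as did the X-linked Sox3 in the SPOC line (0.43 ± 0.09, adjusted p = 0.00033) and in the GFP line (1.42 ± 0.10, adjusted p = 1.3e-12). Of 14 other Krüppel-like genes, 3 rose and 6 fell in the SPOC line (9 of 14, beside 32.0%) and 4 rose and 3 fell in the GFP line (7 of 14, near the 47.6% of all genes). Klf12, a repressor of this family, fell in the SPOC line (-1.24 ± 0.12, adjusted p = 1.4e-09) and in the GFP line (-1.83 ± 0.13, adjusted p = 9.5e-13).

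Markers of other cell types were also called in Dox+Auxin against Dox, and their part in the factors' changes was not tested. The counts of markers called are to be read beside all genes, of which 16.6% were called higher and 15.4% lower in the SPOC line. In the GFP line 24.7% of all genes were called higher and 22.9% lower. The summed level of 8 trophoblast markers was 103 to 161 CPM in SPOC Dox+Auxin libraries and 72.6 to 99.4 in SPOC Dox libraries, and 169 to 176 CPM in GFP Dox+Auxin libraries and 85.0 to 91.3 in GFP Dox libraries. Of the 6 tested, 2 rose and 2 fell in the SPOC line and 2 rose and 1 fell in the GFP line. Tfap2c and Cdx2 rose in both lines. Ascl2 fell in both (-0.49 ± 0.08, adjusted p = 3.6e-05 in the SPOC line, and -0.47 ± 0.08, adjusted p = 2.6e-05 in the GFP line). Gata3 fell in the SPOC line (-0.87 ± 0.16, adjusted p = 5.8e-05). Elf5 and Hand1 were below 1 CPM in every library and Tpbpa had no count. The sum of 8 fibroblast markers was 324 to 355 CPM in SPOC Dox+Auxin libraries, against 249.6 to 271 with Dox, and 361 to 409 CPM in GFP Dox+Auxin libraries, against 249 to 266 with Dox. Most of it was Vim, the 1 member that rose, while of 4 tested, 1 fell in the SPOC line and 3 fell in the GFP line. Col1a2, a collagen chain, fell in the SPOC line (-0.96 ± 0.24, adjusted p = 0.0034) and in the GFP line (-1.54 ± 0.28, adjusted p = 5.6e-05), and Col1a1 fell in the GFP line (-0.37 ± 0.11, adjusted p = 0.0047). Col3a1, Postn, Lum and Dcn were below 1 CPM throughout. The sum of 9 primitive endoderm markers was 299 to 381 CPM in SPOC Dox+Auxin libraries, against 252 to 312 with Dox, and 299 to 391 CPM in GFP Dox+Auxin libraries, against 254 to 307 with Dox; Gata6 and Foxa2 were below 1 CPM. Nearly all of it was Lama1 and Col4a1, matrix genes, and the other members reached at most 8.05 CPM in a library. Of 8 tested, 2 rose and 0 fell in the SPOC line, with a median log2 fold change of -0.17, and 1 rose and 1 fell in the GFP line, where Dab2 fell (-0.58 ± 0.18, adjusted p = 0.011). Among neural markers, Pax6 rose in the SPOC line (1.56 ± 0.23, adjusted p = 4.2e-06) and in the GFP line (2.22 ± 0.29, adjusted p = 1.7e-07) and Nes in the SPOC line (1.12 ± 0.06, adjusted p = 1.6e-14) and in the GFP line (1.33 ± 0.06, adjusted p = 9.2e-16), while Sox1 fell in the SPOC line (-0.88 ± 0.13, adjusted p = 6.8e-06) and in the GFP line (-1.17 ± 0.15, adjusted p = 1.7e-07) and Map2 in the SPOC line (-0.62 ± 0.11, adjusted p = 5.4e-05) and in the GFP line (-0.63 ± 0.12, adjusted p = 9.3e-05). Of these, Pax6 and Sox1 were at low levels, at most 2.43 and 3.54 CPM in a library. The 7 mesoderm and endoderm markers summed to 17.3 to 26.0 CPM in SPOC Dox+Auxin libraries, against 14.3 to 20.8 with Dox, and to 23.9 to 25.8 CPM in GFP Dox+Auxin libraries, against 15.6 to 16.2 with Dox. Most of this sum was T, and of 5 tested, 1 rose and 0 fell in the SPOC line and 4 rose and 1, Kdr, fell in the GFP line (-0.97 ± 0.28, adjusted p = 0.0053); Mesp1, Tbx6 and Cer1 were below 1 CPM. All 6 markers of the 2-cell-like state in the table fell in both lines, their sum being 3.49 to 4.48 CPM in SPOC Dox+Auxin libraries, against 8.53 to 15.5 with Dox, and 5.14 to 5.97 CPM in GFP Dox+Auxin libraries, against 16.0 to 23.7 with Dox. The 9 naive factors themselves summed to 4094 to 4461 CPM in SPOC Dox+Auxin libraries, against 4404 to 4780.2 with Dox, and to 3865 to 4126 CPM in GFP Dox+Auxin libraries, against 4499.9 to 4625 with Dox.

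For reads shared with other genes, only genes that overlap a factor and pseudogenes named after one were looked up. Other copies were not searched. The antisense gene Tbx3os1 shares 697 bases with Tbx3 and had 20 to 58 counts per library, against 6824 to 10592 of Tbx3. Whether strand was used in the counting is not stated in the labels. The pseudogene Nanog-ps1 had 4 to 19 counts per library, and Zfp42-ps1 had 283 to 524 beside 9124 to 16638 of Zfp42. How reads common to a factor and its copy were split is not known.

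The rule for naming genes with a pattern like a factor's asked for a span of group means of at least 0.5, which no factor reached. With a span of 0.4, a limit chosen after the values had been seen, Tfcp2l1, Zfp42 and Klf5 qualified. The genes with the smallest root mean square difference from them over the 6 centred group means were Fanci (0.016) and Bmp2k (0.022) for Tfcp2l1, Adat2 (0.020) and Dcp2 (0.024) for Zfp42, and Sgtb (0.021) and Maats1 (0.022) for Klf5, all in log2 units.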

How the data were processed

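RNA of 27 libraries was measured as paired-end sequence of TruSeq libraries on a HiSeq2500, from RNeasy extracts with a RIN above 9, per the labels' protocols. The build mm10 and the tools STAR 2.5.3a, featureCounts, Trim Galore 0.4.4, DESeq2 1.18.1 and Picard 2.18.2 are named, per the submitters' processing notes, without their roles. The annotation and the use of strand were not given in the sources read. Per the file headers, the deposited table has raw counts and RPKM for each gene. The RPKM, deposited by the authors, equalled the counts after division by a gene length and a library factor, and served only to check the order of levels. The 54 per-sample columns of allele counts were not used, since their names disagreed with the totals.

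After TMM scaling and filterByExpr, counts of 18363 genes were fitted with 1 term per group over all 27 libraries in edgeR 4.0.16 (R 4.3.3, robust quasi-likelihood test, 21 residual degrees of freedom before moderation). P-values were adjusted by Benjamini-Hochberg over all genes tested in each of 11 comparisons, and genes under 0.05 were called. The standard error is the size of the log2 fold change over the root of F. CPM use TMM-scaled library sizes; spans and patterns use log2 CPM with a prior count of 2. GENCODE M21 (GRCm38) gave exon lengths and positions, and named 53620 of the 53801 IDs, and promoter sequences from RefSeq (GRCm38.p6). The steps were tested on simulated counts. Replicates of every group differed by more than sampling noise, with a chi-square per gene (genes with at least 10 counts over the pair, a minimum lowered after a first run with a higher one, which also found no duplicate) of 1.68 for SPOC Dox+Auxin replicates 1 and 2 and of 2.58 or more for all other pairs, so none was counted as a duplicate.

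The text names the 9 factors, Xist and Spen, and from each other list and comparison up to 2 called genes with the largest rise and up to 2 with the largest fall, from which some are given. The factors, the lists and the tests were chosen with earlier results of these data known. Alternatives were DESeq2 size factors, the DESeq2 Wald test (version 1.42.0), no filter, only the groups compared, each library left out, a replicate block and, added after seeing the data, SPOC untreated replicate 2 left out of every fit. The summed level of the neural markers is not reported here.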

Additional observations from a re-analysis of the deposited data

Results flagged for a closer look

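Zfp42 in SPOC Dox replicate 3, at 450.3 CPM, stood apart from the other 4 libraries of its group, which lay between 378 and 386 CPM. Xist in SPOC untreated replicate 2, at 178 CPM, stood apart from the other 4 libraries, at 1.03 to 1.69 CPM. These are the libraries singled out among 66 groups of values, 54 of them of naive factors, and chance alone singles out about 1 in 20 such groups.

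The response to Dox+Auxin relative to Dox differed between the SPOC and the GFP line for 3 of the genes followed, by edgeR's test of the difference itself. Zfp42 fell less in the SPOC line, by 0.26 on the log2 scale (adjusted p = 0.022). Esrrb, which was -0.03 (adjusted p = 0.38) in the SPOC line and fell by 0.16 in the GFP line, differed by 0.13 (adjusted p = 0.03), a call lost in 9 of 18 fits that left out 1 library and with only the groups compared (adjusted p = 0.055). Spen RNA rose less in the SPOC line, with a difference of -0.55 (adjusted p = 0.035); the SPOC construct contains part of Spen, and its share in the counts was not tested.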

How the results depend on the processing

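Across 99 fold changes, 11 comparisons of 9 factors, DESeq2 size factors ended no call, and no setting apart from leaving out a library moved a fold change by more than 0.023 on the log2 scale; leaving out 1 library moved one by up to 0.069. Deviations from the group mean were more alike in same-numbered libraries of a line, where 22 of 27 pairs correlated above 0.1 (median 0.29). Of other-numbered pairs within a line, 5 of 96 did (median -0.08). The labels name no shared batch, and the main fit uses no block although same-numbered libraries were more alike. Whether the replicates were paired is not known, and some calls depend on it. The block had a term per replicate number within each line, except for SPOC against GFP, where it joined same-numbered libraries of both lines. Between the lines, 13 of 36 same-numbered pairs correlated above 0.1 (median 0.07), beside 27 of 144 other-numbered pairs (median -0.01). With a replicate block, 7 factors were called for GFP Dox against untreated (3 without), with 30.5% of all genes called, 7 for SPOC Dox against untreated (2, with Nanog, Klf4, Klf5, Tfcp2l1 and Zfp42 added), with 22.6% of all genes, 4 for SPOC against GFP untreated (1) and 1, Zfp42, for the line difference in Dox against untreated (0). The block also moved the count over all genes to 4145 from 2478 (SPOC Dox against untreated), to 294 from 44 and to 3317 from 1495 (line differences in Dox against untreated and in Dox+Auxin against Dox); the DESeq2 test gave 89 beside the 44. With only the groups compared, 7 factors were called for GFP Dox against untreated and 1 for the line difference in Dox+Auxin against Dox (2 in the fit of all groups). For SPOC against GFP with Dox+Auxin, 4 were then called (6 in the fit of all groups). Without a filter, 0 were called for SPOC against GFP untreated. The cause was not tested.

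Leaving out 1 library gave 3 to 5 factors for GFP Dox against untreated, 3 to 5 for SPOC Dox+Auxin against untreated, 0 to 2 for SPOC against GFP untreated (0 without GFP replicate 1 or 2, 2 without SPOC replicate 3 or 4) and 0 to 3 for the line difference in Dox+Auxin against Dox. For SPOC against GFP with Dox+Auxin it gave 4 to 6. All genes called then came to 1035 to 2171 for SPOC against GFP untreated (2122 with all), lowest without GFP untreated replicate 2, 1076 without replicate 1 and 1406 without SPOC untreated replicate 5. For SPOC against GFP with Dox they came to 1260 to 2078 (1962 with all), with 1260 without GFP Dox replicate 2 and 1298 without replicate 1.

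Signs turned only for values near 0 that were not called. Klf2 in SPOC Dox+Auxin against untreated, -0.00093, became 0.00359, 0.00511, 0.00411 and 0.00350 with DESeq2 size factors, DESeq2, no filter and only the groups compared, and -0.025 to 0.027 when 1 library was left out. Tbx3 in SPOC against GFP untreated, -0.00086, became 0.0145 with the block, 0.00264 without SPOC untreated replicate 2 and -0.047 to 0.025. Klf4 in SPOC against GFP with Dox+Auxin, 0.016, became -0.00751 with the block and -0.016 to 0.034. Tfcp2l1 in the line difference of Dox against untreated, 0.0047, became -0.00903 without SPOC untreated replicate 2 and -0.020 to 0.032. When 1 library was left out, Klf2 in GFP Dox+Auxin against untreated ran from -0.053 to 0.018, Klf4 and Esrrb in SPOC against GFP with Dox from -0.024 to 0.0038 and from -0.016 to 0.0045, Prdm14 in the line difference of Dox against untreated from -0.011 to 0.043, and Klf4 in that of Dox+Auxin against Dox from -0.010 to 0.040.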

Other observations

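Within the GFP Dox+Auxin group, the libraries differed in Spen RNA and in some factors alike. Replicate 3 had the lowest Spen, 634 CPM, and the lowest Tfcp2l1 (794 CPM), Esrrb (674 CPM) and Tbx3 (219 CPM) of the 4 libraries. Replicate 4 had the highest Spen, 1164 CPM, and the highest Tfcp2l1 (1047 CPM), Esrrb (742 CPM) and Tbx3 (240.2 CPM). Klf2 went the other way, with 303 CPM in replicate 3 and 262 CPM in replicate 4. The SPOC Dox+Auxin group did not show this for all of them: replicate 4 had the highest Spen (1242 CPM) and Tfcp2l1 (1054 CPM), but replicate 3, with the lowest Spen (973 CPM), had the highest Esrrb (806 CPM) and Tbx3 (282 CPM). These are 4 and 5 libraries, too few for a correlation, and no test was made.

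Foxd3, a pluripotency factor outside the 9, rose with Dox against untreated in the SPOC line (log2 fold change 0.29, adjusted p = 0.0095) and in the GFP line (0.31, adjusted p = 0.0072), while with Dox+Auxin against Dox it fell in both. Nr5a2, a nuclear receptor that supports the naive state, rose with Dox in the GFP line (0.41, adjusted p = 1.4e-08). Its SPOC means were 124 CPM untreated and 150.2 CPM with Dox, and a test for that line is not given here. Gbx2, a homeobox gene of the naive state, rose with Dox in the SPOC line (0.38, adjusted p = 0.0069) and in the GFP line (0.55, adjusted p = 0.00017). Of the 12 other genes tied to the naive state, Dox against untreated called 5 higher and 0 lower in the SPOC line and 6 higher and 0 lower in the GFP line, where 6.16% and 10.1% of all genes, and 9.99% and 24.4% of genes at or above the mean CPM of Prdm14, were called higher in the SPOC and the GFP line.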
